A study of Drosophila melanogaster with 3 samples.

Results

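The small RNAs described here are those whose lowest listed start on the retroelement Penelope lies at positions 571 to 660, where the left terminal repeat ends and the reading frame begins. They were chosen by that start position alone, on either strand, with each distinct sequence counted once per strain. In the A1a list 79 of 970 sequences met the rule, in A2d 225 of 1800 and in A2h 36 of 474. These made 277 different sequences of 2670 over the 3 lists. The window had been picked with the reads' positions already known, so the number of reads in it, their strand and their repeat matches are descriptions of how it was chosen and not findings.

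Ovaries of the Drosophila melanogaster strains A1a, A2d and A2h were the source, each represented by 1 library. The flies were 3 to 5 days old and kept at 25 degrees, and RNA of 23 to 29 nt was cut from a gel before adapters were added. How the strains differ genetically is not stated in these sources, beyond the series' remark that Penelope piRNAs are seen in them on Northern blots. The lists name no gene, so the labelled tissue could not be checked against markers. With 1 library per strain no test between strains was possible, and no p-value is given.

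Penelope is native to Drosophila virilis, where its movement accompanies hybrid dysgenesis, and it codes for a reverse transcriptase with an endonuclease domain. Its copies carry terminal repeats that resemble the long terminal repeats of other retroelements. piRNAs are germline small RNAs that guide Piwi proteins to transposon RNA. Primary piRNAs tend to begin with uridine. In the ping-pong cycle a piRNA directs the cut of the opposite RNA 10 nt from its own 5′ end, which leaves partner piRNAs that overlap by 10 nt and tend to carry adenine at base 10. The 3′ end of a piRNA is set by a separate cut and by trimming, so a common 5′ end with ragged 3′ ends is the usual form.

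Positions are counted from 1 on the authors' Penelope sequence, which was rebuilt from the listed matches without contradiction. Shares carry exact (Clopper-Pearson) 95% binomial intervals on reads. They cover counting error only, since PCR copies were not marked and reads of 1 sequence are not independent molecules. Where a count was 0, the limit given is the share that 3 reads would make. The plus strand of positions 571 to 690 is shown because the member ends named here, taken at the lowest listed place, fall on it. Capitals mark the start codon at 617 that opens the longest reading frame of the rebuilt sequence.
Penelope 571 to 690: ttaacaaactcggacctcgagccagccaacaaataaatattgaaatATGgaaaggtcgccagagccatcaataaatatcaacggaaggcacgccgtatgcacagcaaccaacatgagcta

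By the sequences listed at 2 places, the left repeat ran to position 618, so its last bases are also the first of the reading frame. Only 1 such read, in A1a, reached 618, so this end and the right copy's base there rest on it. The right copy lies 2781 nt downstream and ends at 3399, which is also the last listed position. From position 571 on the copies differed at 3 places, written with the left base, the left position and the right base: A614T, A617T and T618A. Capitals mark those bases in both copies.
Left copy, 589 to 618: gagccagccaacaaataaatattgaAatAT
Right copy, 3370 to 3399: gagccagccaacaaataaatattgaTatTA

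The leading members fell on a few 5′ ends, and the sequences below show how they nest. All are antisense, so each reads from a high position to a low one. Capitals mark bases 1 and 10, the bases that the piRNA pathway's marks concern.
From 615 to 589: TttcaatatTtatttgttggctggctc
From 614 to 589: TtcaatattTatttgttggctggctc
From 613 to 589: TcaatatttAtttgttggctggctc
From 613 to 587: TcaatatttAtttgttggctggctcga
From 617 to 594: TatttcaatAtttatttgttggct
From 617 to 592: TatttcaatAtttatttgttggctgg
From 622 to 595: TtccatattTcaatatttatttgttggc
From 647 to 623: TatttattgAtggctctggcgacct
From 650 to 624: TgatatttaTtgatggctctggcgacc
1 nt shorter at the 5′ end than the last: GatatttatTgatggctctggcgacc

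The members held 149 of 1777 listed reads for A1a (8.38%, 7.14 to 9.77%), 848 of 3870 for A2d (21.9%, 20.6 to 23.2%) and 50 of 748 for A2h (6.68%, 5.00 to 8.72%). A2d thus had the largest share, with an interval apart from the others, and A1a and A2h had overlapping ones. With each sequence counted once the A2d share was 12.5%, next to 8.14% for A1a and 7.59% for A2h, and its interval was still apart from theirs. Antisense reads made up 89.03% (86.7 to 91.1%) of the members of A2d, against 52.7% (50.9 to 54.5%) of its other listed reads. In A1a they made up 57.7% (49.4 to 65.8%) of the members and 57.1% (54.6 to 59.5%) of the other reads. In A2h the shares were 90.0% (78.2 to 96.7%) and 94.3% (92.3 to 95.9%). The intervals of members and other reads were thus apart in A2d and overlapped in A1a and A2h. In A1a this depended on where the window was cut: with it 10 nt narrower at each side the antisense share was 78.7% (69.8 to 86.0%) of members and 55.7% (53.3 to 58.1%) of the other reads. The members held 32.2% (30.3 to 34.1%) of the antisense reads of A2d and 6.11% (4.96 to 7.43%) of its sense reads.

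Most members were seen in a single list. Of the 277 sequences, 223 occurred in 1 library, 45 in 2 and 9 in all 3. A1a and A2d shared 41, which is 51.9% of the A1a members and 18.2% of the A2d members. A1a and A2h shared 12, or 15.2% and 33.3% of their members, and A2d and A2h shared 19, or 8.44% and 52.8%. These counts depend on how many reads each list holds. They were not set against the same counts over all listed sequences, so they show no trait particular to the members. The whole lists held 970, 1800 and 474 sequences, of which 2670 were different. The members numbered 79, 225 and 36, of which 277 were different. The 9 sequences found in all 3, of which 8 are antisense, held 23 of 149 member reads for A1a, 313 of 848 for A2d and 22 of 50 for A2h. The sense one ran from 572 to 597 and is printed with the other sense members.

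Sequences with 2 listed places lie wholly within the repeats, and those with 1 place mostly run past the repeat end. Among antisense members, 64 of 86 reads for A1a matched both repeats (74.4%, 63.9 to 83.2%), against 409 of 755 for A2d (54.2%, 50.5 to 57.8%) and 23 of 45 for A2h (51.1%, 35.8 to 66.3%). Reads that crossed the repeat end numbered 5 in A1a, 102 in A2d and 9 in A2h, and reads that lay wholly beyond it 12, 226 and 12. The remaining reads with 1 place, 5, 18 and 1, ended inside the left repeat. The 2-place share of A1a thus lay above that of A2d without overlap of intervals, while the interval of A2h took in both ranges in part. The intervals of A1a and A2d did overlap with each sequence counted once (52.5% and 39.2%) and with exact matches only (46.4% and 28.6%). The exact setting drops by construction 2-place reads over a base at which the copies differ, so it cannot check this share. Among sense members the reads with 2 places were 46 of 63 for A1a, 81 of 93 for A2d and 5 of 5 for A2h.

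A match to both copies did not mean an equal match. Reads that run past the repeat end can only come from the left copy, so the differing positions were compared over the members that stop within the repeat. At 614 these carried the left base in 54 of 55 reads of A1a, 297 of 297 of A2d and 18 of 18 of A2h. At 617 they carried it in 43 of 44, 75 of 75 and 1 of 1. Too few of them reach 618, where it was read in 0 of 1, 2 of 3 and 1 of 1. Antisense members with 2 places had fewer mismatches at the left copy in 49 of 64 reads of A1a, 279 of 409 of A2d and 17 of 23 of A2h. They had fewer at the right copy in 1 read of A1a and in none of A2d or A2h, and all others matched equally. No sequence in any list matched only the right copy from the start that corresponds to 571 onwards. The sense members with 2 places could only match both copies equally. None of them reached past position 610, and within the window the copies first differ at 614. They therefore cannot tell the copies apart.

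Most antisense member reads began in a pair of narrow zones. The zone from 611 to 622, around the end of the repeat, held 70 of the 86 antisense member reads for A1a, 454 of 755 for A2d and 28 of 45 for A2h. A further zone from 645 to 650, inside the reading frame, held 9, 214 and 9. Fewer reads began between them, from 623 to 644, with 1, 56 and 2. Below them, from 589 to 610, the counts were 7, 32 and 3 over all listed sequences, some of which were not members in A1a and A2d. Just below the members, from 570 to 588, no antisense 5′ end was listed in any of the 3 libraries, over all sequences and not members alone. Sense 5′ ends were concentrated in that same stretch, with 46 of 63 sense member reads starting at 571 to 590 for A1a, 81 of 93 for A2d and 5 of 5 for A2h.

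Position 617, the first base of the start codon, was the main antisense 5′ end of A1a. It held 43 of 86 antisense member reads there (50.0%, 39.02 to 61.0%), against 72 of 755 for A2d (9.54%, 7.54 to 11.9%) and 0 of 45 for A2h. The count of 0 in A2h allows a share of up to 6.67%. The intervals of A1a and A2d lay far apart, although as a share of the whole list the values were 2.42% (1.76 to 3.25%) for A1a and 1.86% (1.46 to 2.34%) for A2d, with overlapping intervals. It was the third of all antisense 5′ ends listed for A1a and the seventh for A2d. Its leading form, from 617 to 594, had 19 reads in A1a, 23 in A2d and none in A2h. The form from 617 to 592 had 7, 10 and none.

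Positions 613 to 615, 3 neighbouring bases that all give a 5′ uridine, held the leading reads of A2d. Together they had 305 of 755 antisense member reads in A2d (40.4%, 36.9 to 44.0%), 19 of 86 in A1a (22.1%, 13.9 to 32.3%) and 16 of 45 in A2h (35.6%, 21.9 to 51.2%). The A2d interval lay above that of A1a, and that of A2h overlapped both. As shares of the whole list they were 7.88% in A2d (7.05 to 8.78%), 1.07% in A1a (0.645 to 1.66%) and 2.14% in A2h (1.23 to 3.45%). The single forms that end at 589 had 102 reads from 615, 73 from 614 and 65 from 613 in A2d. The same sequences had 3, 3 and 7 reads for A1a and 7, 4 and 1 for A2h. In A2d and A2h the longest of the 3 was the most frequent, and in A1a the shortest was, on 7 reads.

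These forms shared a 3′ end and differed at the 5′ end. Position 589 was the 3′ end of 285 of 755 antisense member reads in A2d (37.7%, 34.3 to 41.3%), where it was the commonest antisense 3′ end of the entire list. That share was 15.8% with each sequence counted once and 18.2% with exact matches only. It held 20 of 86 in A1a (23.3%, 14.8 to 33.6%) and 13 of 45 in A2h (28.9%, 16.4 to 44.3%). The reads that ended there came from 6 different 5′ ends in A2d, 6 in A1a and 4 in A2h. For the starts at 613 to 615 the 3′ end at 589 prevailed in A2d, with 108 of 125 reads from 615, 83 of 91 from 614 and 73 of 89 from 613. Mean length in A2d accordingly stepped from 25.2 nt for reads from 613 through 25.96 nt from 614 to 26.9 nt from 615.

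Reads from 617 had a shared 5′ end and scattered 3′ ends. In A1a the 43 reads ended at 6 positions between 589 and 595, with 22 of them at 594. In A2d the 72 reads ended at 7 positions in the same span, with 27 at 594 and 10 at 589. For reads from 617 that span is the 23 to 29 nt range cut from the gel. No list holds a read shorter than 23 nt, so shorter forms could not be seen. A few reads of 30 nt were listed, so the upper limit is not strict. The share at the commonest 3′ end was 51.2% (35.5 to 66.7%) for A1a and 37.5% (26.4 to 49.7%) for A2d, below the 86.4% (79.1 to 91.9%) of A2d reads from 615. Within the selected sizes, the 5′ ends at 615 and 617, only 2 nt apart, thus differed by reads in how uniform their 3′ ends were. In A2d 1 sequence made 102 of the 125 reads from 615, and 1 sequence made 23 of the 72 from 617. PCR copies were not marked, and this contrast was not examined with each sequence counted once.

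Reads that cross the repeat end were led by those from 621 and 622. The form from 622 to 595 had 13 reads for A2d, 2 for A1a and 4 for A2h, where it tied with the form from 614 to 589 behind the form from 615. With their neighbours at 620 these ends held 55 of 755 antisense member reads in A2d (7.28%, 5.53 to 9.38%), 4 of 86 in A1a (4.65%, 1.28 to 11.5%) and 7 of 45 in A2h (15.6%, 6.49 to 29.5%). All 3 intervals overlapped. Their mean length was 27.98 nt in A2d, 28.5 nt in A1a and 28 nt in A2h, above the means of the other zones described. They have 1 listed place, at the join of the left repeat and the reading frame.

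The zone inside the reading frame was prominent in A2d. Ends at 645 to 650 held 214 of 755 antisense member reads in A2d (28.3%, 25.2 to 31.7%), 9 of 86 in A1a (10.5%, 4.90 to 18.9%) and 9 of 45 in A2h (interval 9.58 to 34.6%). The A2d interval lay above that of A1a, and that of A2h overlapped both. It had peaks at 650, with 83 reads in A2d, and at 647, with 74, and each of them had 3 reads or fewer in A1a and A2h. In A2d reads from 647 ended at 622 to 625 and reads from 650 at 622 to 626, so the 3′ ends of both fell in the same few bases although their starts are 3 nt apart. The most frequent forms were 647 to 623, with 32 reads in A2d, 2 in A1a and none in A2h, and 650 to 624, with 24, 1 and 1. The form that lacks the first base of the form from 650, and so starts with G, had 9 reads in A2d, 2 in A2h and none in A1a.

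The length of the antisense members followed these zones. Mean length was 25.3 ± 1.69 nt in A1a (SD over 86 reads), 26.2 ± 1.36 nt in A2d (SD over 755 reads) and 26.5 ± 1.39 nt in A2h (SD over 45 reads). The other antisense reads of the same lists averaged 25.8 ± 1.59 nt, 25.8 ± 1.52 nt and 26.1 ± 1.60 nt. The means of the members were thus lower in A1a and higher in A2d and A2h, and these differences were not tested. The commonest length of the members was 24 nt in A1a, with 24 reads, 27 nt in A2d, with 208 reads, and 26 nt in A2h, with 13 reads. In A1a 27.9% (18.8 to 38.6%) of antisense members were 24 nt long, against 9.40% (7.42 to 11.7%) in A2d. Of those A1a reads, 19 were the single form from 617 to 594. Sense members averaged 25.9 ± 1.44 nt in A1a (63 reads) and 26.3 ± 1.68 nt in A2d (93 reads), and 3 of the 5 in A2h were 23 nt long.

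Uridine at base 1 was the rule among antisense members. It was found in 79 of 86 reads for A1a (91.9%, 83.9 to 96.7%), 657 of 755 for A2d (87.02%, 84.4 to 89.3%) and 33 of 45 for A2h (73.3%, 58.1 to 85.4%). The other antisense reads had 71.6% (68.6 to 74.5%), 76.4% (74.2 to 78.4%) and 82.1% (78.9 to 84.9%). The members were thus above the rest, without overlap of intervals, in A1a and A2d, and the intervals overlapped in A2h. The separation was lost in both strains with each sequence counted once, at 85.0% of members and 73.2% of others in A1a and 73.1% and 74.7% in A2d. It was also lost with exact matches only, at 85.7% of members and 72.1% of others for A1a, and 79.8% and 76.2% for A2d. That setting drops by construction all 2-place reads from 614, 615 and 617, which begin mostly with U, so it is no check on those ends. The stretch itself offers many such starts: 40 of the 97 positions at which an antisense member could begin, 41.2%, would give U. Among sense members U at base 1 made up 44.4% (31.9 to 57.5%) of reads for A1a, 44.1% (33.8 to 54.8%) for A2d and 2 of 5 reads for A2h. The other sense reads had 61.9% (58.2 to 65.6%), 56.4% (53.8 to 59.02%) and 60.0% (43.3 to 75.1%), and 16.7% of the positions open to sense members would give U. The sense members were below the other sense reads in all 3 libraries, with intervals apart in A1a and overlapping in A2d and A2h. Those of A1a overlapped as well with each sequence counted once, at 43.6% of members and 51.5% of others, and with exact matches only, at 6 of 20 member reads and 54.8% of others. Among sense members the exact setting drops all reads over position 580.

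Base 10 is fixed by the 5′ end, so its share followed the leading ends. Adenine stood there in 65.1% (54.1 to 75.1%) of antisense member reads for A1a, 31.7% (28.3 to 35.1%) for A2d and 13.3% (5.05 to 26.8%) for A2h. The other antisense reads had 25.8% (23.0 to 28.8%), 23.7% (21.7 to 25.9%) and 23.7% (20.5 to 27.1%). With each sequence counted once the members of A2d had 21.6%, the same as its other reads, and those of A1a 45.0%, against 23.0% of the others. With exact matches only the intervals overlapped in A1a, at 42.9% of members (24.5 to 62.8%) and 25.4% of others (22.4 to 28.7%). They stayed apart in A2d, at 38.4% and 24.5%. Reads from 617 and 613 carry A at base 10 and those from 614 and 615 carry U, which the sequences printed above show. Among sense members A at base 10 made up 54.0% (40.9 to 66.6%) of reads in A1a and 30.1% (21.03 to 40.5%) in A2d, against 57.5% (53.7 to 61.2%) and 53.9% (51.3 to 56.5%) of the other sense reads. The interval of A2d lay below that of its other reads, and the intervals of A1a overlapped. The direction in A2d turned with the window: 10 nt narrower at each edge, 16 of 17 sense member reads had A at base 10 (94.1%, 71.3 to 99.9%), against 52.0% of the others. With exact matches only it was 13 of 14 (92.9%, 66.1 to 99.8%), against 51.0%. For sense members the exact setting drops all reads over position 580, among them those from 571 and 572.

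The sense members were short series from a few starts. Position 572 led in A2d with 29 of 93 sense member reads and in A1a with 11 of 63. Position 571 had 10 reads for A1a and 4 for A2d, and position 574 had 12 for A2d. The forms from 571 and 572 are shown because their base 10 falls on or beside position 580, where the reads differ from the authors' sequence, and the form from 579 because it led the sense members of A1a. Capitals mark bases 1 and 10.
Sense, 571 to 597: TtaacaaacAcggacctcgagccagcc
Sense, 572 to 597: TaacaaacaCggacctcgagccagcc
Sense, 572 to 598: TaacaaacaCggacctcgagccagcca
Sense, 579 to 603: CacggacctCgagccagccaacaaa
The form from 571 had 3 reads in A1a and none in A2d or A2h. The shorter form from 572 had 3 reads for A1a, 11 for A2d and 1 for A2h, and the longer one 3, 6 and none. The form from 579 had 4 reads in A1a, 1 read in A2d and none in A2h. Among members that cover position 580 the change T580A was read in 40 of 40 reads for A1a, 77 of 78 for A2d and 4 of 4 for A2h. Base 10 of a read from 571 is that position, so its A is the read base and not the authors' base, while reads from 572 carry C there.

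Members with a 10 nt partner rested on very few sense reads. In A1a 52 of 86 antisense member reads had a sense partner at 10 nt (60.5%, 49.3 to 70.8%), in A2d 283 of 755 (37.5%, 34.02 to 41.0%) and in A2h 0 of 45, which allows a share of up to 6.67%. The other antisense reads had partners in 15.2% (12.9 to 17.6%), 22.9% (20.9 to 25.1%) and 0.304% (0.0368 to 1.09%). The shares of members in A1a and A2d were higher than in the rest of the list, without overlap of intervals. Behind them stood 10 sense sequences with 11 reads in A1a and 11 sense sequences with 12 reads in A2d, none with more than 2 reads. With only sequences of 2 or more reads kept, the share was 3.33% of members and 9.65% of others in A1a, and 10.02% and 11.6% in A2d, with overlapping intervals in each. The intervals also overlapped for A1a with exact matches only (25.0% and 12.7%) and for A2d with each sequence counted once (32.2% and 22.9%). The exact setting drops by construction all 2-place reads from 617, so it is no check on the partners of that end. A2h had no sense 5′ end at any position from 591 to 660, so no partner could be seen for its main antisense ends.

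Every one of these sense partners was itself a member with 1 place, that is, it ran out of the left repeat or lay beyond it. All 43 reads from 617 in A1a and all 72 in A2d had partners from 608, which were 2 sense reads in A1a and 3 in A2d. The form present in both is printed to show the overlap with the reads from 617. Capitals mark its first 10 bases, which pair with theirs.
Sense, 608 to 633: TATTGAAATAtggaaaggtcgccaga
In A2d the 89 reads from 613 paired with 1 sense read from 604, and those from 614 and 615 had none, which left the leading forms of that strain without a listed partner. The 74 reads from 647 paired with 4 sense reads from 638, while the 83 from 650 had none. In A1a the ends from 645 to 650 all had partners, 9 reads in all.

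Set against other overlaps, 10 nt was the most frequent by read pairs in both strains that had sense partners, by unequal margins. In A1a it held 106 read pairs, next to 104 at 7 nt, and all other overlaps of up to 20 nt had a mean of 16.2. By pairs of distinct sequences it held 39, against 25 at 7 nt. In A2d it held 3.52 times the mean of those others, which was 184 read pairs, next to 432 at 8 nt, and 109 sequence pairs against 82 at 12 nt. By the share of antisense member reads with a partner, however, 12 nt in A2d, at 42.6%, and 14 nt, at 38.9%, were above the 37.5% at 10 nt, and 7 nt in A1a, at 61.6%, was above the 60.5%. In this window the 10 nt overlap was thus the top value by pairs and not by that share.

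Seen from the sense strand, partners were less frequent within the repeat than beyond it. Of sense members with 2 places, 6 of 46 reads in A1a had a 10 nt antisense partner (13.0%, 4.94 to 26.3%) and 4 of 81 in A2d (4.94%, 1.36 to 12.2%). Of those that crossed the repeat end or lay beyond it, 2 of 4 and 9 of 13 reads had one in A1a, and 5 of 5 and 7 of 7 in A2d. Antisense members that crossed the repeat end had none, in 5 reads of A1a, 102 of A2d, which allows a share of up to 2.94%, and 9 of A2h.

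The base that would follow the 3′ end on the same strand was also read from the element, since piRNAs laid head to tail often stop before a uridine. Among antisense members it would be U in 20.9% (12.9 to 31.05%) for A1a, 37.7% (34.3 to 41.3%) for A2d and 37.8% (23.8 to 53.5%) for A2h. Among the other antisense reads it would be U in 59.8% (56.6 to 63.02%), 60.5% (58.04 to 62.9%) and 73.7% (70.2 to 77.04%). The members were thus lower than the rest in all 3 libraries, without overlap of intervals. The 3′ ends at 589 and 594 are each followed by G on the antisense strand. In A2d 285 of the 755 reads ended at 589, and of the other 470 reads 285 would be followed by U. The difference in A2d thus depended on that 3′ end. In A1a 18 of the 63 reads that did not end at 594 would be followed by U, and 20 of those 63 ended at 589. In A2h it was 17 of the 32 reads that did not end at 589. Both shares were still below those of the other antisense reads. Of the plus-strand bases from 571 to 690, 40.0% are A, which gives U on the antisense strand. These shares were not examined under the other settings.

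The edges of the window cut through a run of sense reads on the left and through sparse reads on the right. Within 5 nt inside the left edge lay 29 reads for A1a, 61 for A2d and 3 for A2h, and within 5 nt outside it 90, 100 and 3. The most abundant sequence just outside was the sense sequence TgttttaacAaacacggacctcgagc, from 567 to 592, again with bases 1 and 10 in capitals. It had 40 reads in A1a and 24 in A2d. Just inside, the leading one had 3 reads in A1a and 11 in A2d. At the right edge no library had more than 1 read within 5 nt on either side.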

How the data were processed

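For each strain the authors deposited a list of distinct sequences with Penelope matches, and their raw counts of reads, with no normalization named in the file headers. Per the labels' protocols, RNA of 23 to 29 nt was gel-selected, ligated to adapters and amplified by PCR. No aligner, trimming step or Penelope accession is given in the sources used here. The lists held 1777, 3870 and 748 reads (A1a, A2d, A2h) of 23 to 30 nt with at most 2 mismatches. Lines repeated for a second place were collapsed, so that each sequence counted once. The 5 empty lines were not analysed here.

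Members were sequences whose lowest start was 571 to 660. A partner is a sequence of the other strand, anywhere in the same list, whose 5′ end overlaps by 10 nt at any listed place. Named sequences were the 5 leading antisense and 3 leading sense members of each library, the 5 leading members of all 3 lists, partners and edge sequences. Zones of 5′ ends and the printed sense partner were set after the values were seen. Members and lists were chosen with earlier results of these data known. Python 3.11.15, pandas 2.3.3, NumPy 2.4.6 and SciPy 1.17.1 were used, and the overlap count was tested on simulated data.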

Additional observations from a re-analysis of the deposited data

How the results depend on the processing

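No paired analysis was possible because each strain has 1 library. Of 128 values under 7 other settings, 70 stayed within the interval of the reported value and 58 left it. The 39 of these that concern the 5 main shares are given by setting. For mean length the interval used was the mean ± SD over reads and not an exact interval of the value. All values of mean length stayed within it and are counted among the 70, so that count overstates how many values held.
With each sequence counted once, A1a had 52.5% of antisense members in both repeats. A2d then had 12.5% of the list, 76.0% antisense, 73.1% U at base 1, 39.2% in both repeats and 32.2% with a 10 nt partner.
With 2 or more reads, A1a had 96.7% U at base 1, 90.0% in both repeats and 3.33% with a partner. A2d had 27.4% of the list, 91.9% antisense, 89.5% U and 10.02% with a partner. A2h had 100% antisense, 89.5% U and 68.4% in both repeats.
Without the most abundant member, 49.3% of A1a had a partner. A2d had 19.8% of the list, 47.01% in both repeats and 43.3% with a partner.
With the window 10 nt narrower at each edge, the share of the list was 6.08% in A1a and 19.9% in A2d, and the antisense share 78.7% in A1a, 97.8% in A2d and 97.8% in A2h.
With exact matches only, the share of the list was 3.63% in A1a, 14.1% in A2d and 3.86% in A2h, and the share in both repeats 46.4%, 28.6% and 20.8%. A partner was then found for 25.0% in A1a and 47.3% in A2d, and A2d had 96.5% antisense and 79.8% U.
Partners at 9, 10 or 11 nt raised the A2d share to 57.0%. A further alternative, chosen after seeing the data, left out the commonest 3′ end of each library. That end was 594 in A1a and 589 in A2d and A2h. Without it a partner was found for 47.6% in A1a and 42.6% in A2d, and U at base 1 in 81.3% in A2d. The other 19 were 8 values of A at base 10 in sense members and 11 of the share at the commonest 3′ end. A at base 10 ranged over them from 73.9 to 75.0% in A1a and from 17.5 to 94.1% in A2d, and was 100% on 1 read in A2h. The 3′ end share ranged from 0 to 12.5% in A1a, where 594 held 26.7% as reported. At 589 it ranged from 15.8 to 41.4% in A2d and from 4.17 to 57.9% in A2h. Exact matches were required at every listed place, which by construction drops reads that match both repeats across a differing base and all member reads over position 580. The cause of the other shifts was not tested. Depth limits A2h most, with 45 antisense and 5 sense member reads.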
